A study of Mus musculus with 2 samples.

Results

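A set of 16 miRNA entries that are known from epithelia, kidney, liver and pancreas was followed in microvesicles (MVs) of mesenchymal stem cells (MSCs), which are not epithelial cells. The entries were chosen by name from the 831 mouse miRNA entries with deposited values, which need not be all those of the array. Every entry was taken with the stem miR-122, miR-192, miR-194, miR-203, miR-205, miR-215, miR-216a, miR-216b, miR-217 or miR-375. Of these 10 stems 9 had an entry, and miR-216b was not analysed here. MVs were isolated from the supernatant of bone marrow MSCs of 4-week-old male C57BL/6 mice, grown in serum-containing medium for 48 h with 100 IU/ml erythropoietin (EPO-MVs, 1 array) or without it (MSC-MVs, 1 array). The MSCs were a primary culture at the third passage, and fetal bovine serum was in the medium of both groups. With 1 array per group no difference has a replicate check, no test could be run, and a difference between arrays cannot be told apart from one between cultures.

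A miRNA is cut from a hairpin precursor as a short strand of the 5p or the 3p arm, and bases 2 to 8 of the strand, the seed, pair with target mRNAs. In adult mammals miR-122 is the leading miRNA of hepatocytes. The pair miR-192 and miR-194 and the related miR-215 are enriched in kidney, liver and gut epithelium, and miR-192 has been studied as a regulator of collagen in renal fibrosis. In stratified epithelium miR-203 promotes differentiation of the epidermis, and miR-205 marks basal epithelium and, like the miR-200 family, represses Zeb factors that drive the epithelial-mesenchymal transition. In the exocrine pancreas miR-216a and miR-217 are typical of acinar cells, and miR-375 belongs to the endocrine islet, where it limits insulin secretion.

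The mature sequences below are those of 6 of the 8 members called changed, together with miR-215-5p, which shares its seed with miR-192-5p, and miR-194-5p, which had the highest mean log2 intensity of the members. They are RefSeq sequences of GRCm38.p6, to which 13 of the 16 entries matched by name (not miR-122-3p, miR-122-5p and miR-375-3p), written 5′ to 3′ with the seed in capitals.
mmu-miR-192-5p: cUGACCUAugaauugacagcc
mmu-miR-215-5p: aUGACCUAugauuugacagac
mmu-miR-215-3p: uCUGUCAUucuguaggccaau
mmu-miR-194-5p: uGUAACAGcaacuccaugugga
mmu-miR-203-5p: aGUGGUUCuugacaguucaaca
mmu-miR-205-3p: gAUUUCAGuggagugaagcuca
mmu-miR-216a-5p: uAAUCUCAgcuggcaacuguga
mmu-miR-375-5p: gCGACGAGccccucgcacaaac

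The 13 matched members had 12 different seeds. The seed UGACCUA of miR-192-5p and miR-215-5p was the one that was shared, and no other entry of the array with a matched sequence held any of the 12. The strands of miR-192-5p and miR-215-5p are 21 nt long and identical at 18 positions, and counted from the 5′ end of miR-192-5p they differ by C1A, A12U and C20A. How far their probes separate such close sequences is not given in the sources used here.

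On GRCm38.p6 the kidney and gut miRNAs lie in 2 clusters. Mir194-1 (chr1:185313319-185313385, plus strand) and Mir215 (chr1:185313581-185313692, plus strand) are 195 bp apart within the bounds of Iars2, a tRNA synthetase gene. Mir194-2 (chr19:6264643-6264728, plus strand) and Mir192 (chr19:6264844-6264932, plus strand) are 115 bp apart outside any annotated gene, and miR-194-5p can come from either cluster. Mir216a (chr11:28757012-28757083, plus strand) and Mir217 (chr11:28763728-28763835, plus strand) are 6644 bp apart within the non-coding gene Gm40818. Mir205 (chr1:193507463-193507530, minus strand) lies in its host gene Mir205hg, while Mir203 (chr12:112130880-112130955, plus strand) and Mir375 (chr1:74900658-74900721, minus strand) lie outside other genes.

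The normalized intensity of an array was read against its floor. Every value of an array was a whole-number multiple of its lowest one, which is called 1 step here, and an intensity of 1 was made of 471 steps for EPO-MVs and of 447 for MSC-MVs. Because of this normalization, equal steps on both arrays give an EPO-MV to MSC-MV ratio of 0.949. A step has no known unit, background was not measured in the values used here, and probes differ in brightness, so the place of a miRNA on the array is not its abundance. The arrays had medians of 97 and 87 steps. Of each pair of values the first is that of EPO-MVs (with EPO) and the second that of MSC-MVs (without it).

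The 16 members lay low on both arrays. They ranged from 1 to 218 steps with EPO, with a median of 39, and from 1 to 189 steps without it, with a median of 28. Of the members 3 (18.8%) had at least 60 steps on both arrays, as had 463 of all 831 entries (55.7%). Below 30 steps on both arrays were 7 of the 16 members and 196 of all 831 entries. With all entries ordered by mean log2 intensity and cut into 4 groups of nearly equal size, 7 members were in the dimmest group, 6 in the next, 3 in the one above it and 0 in the brightest. Their summed intensity made up 0.0932% of the EPO-MV total and 0.0745% of the MSC-MV total. Values at the floor itself occurred on both arrays, with miR-205-3p and miR-375-5p at 1 step with EPO and miR-192-5p at 1 step without it. Over all entries, 3 were at 1 step with EPO and 14 without it.

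**Figure D1:**
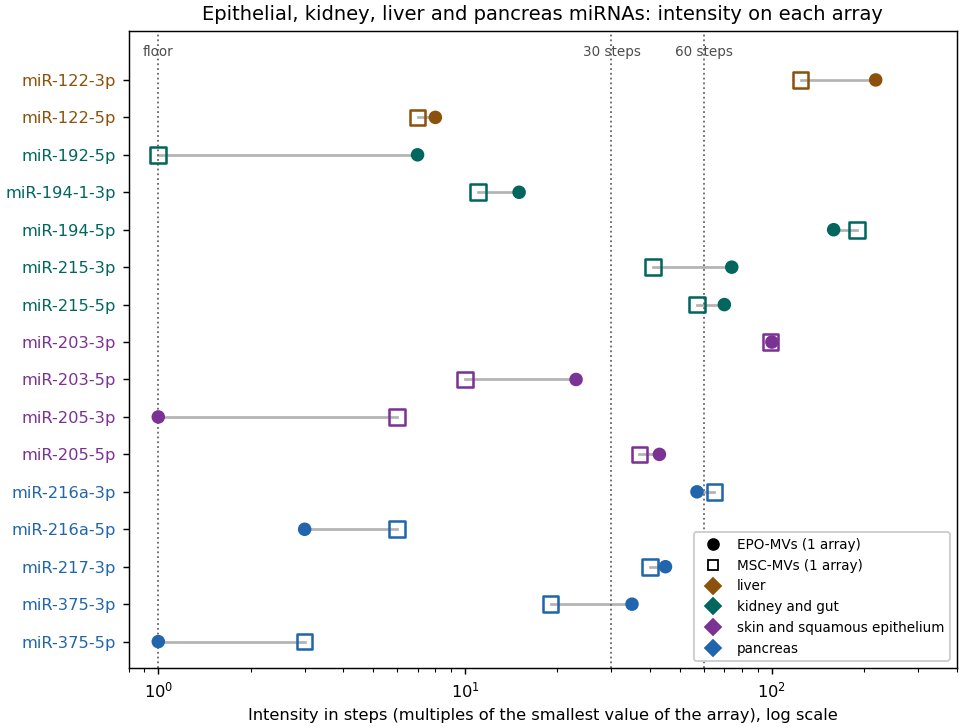
Intensity of the 16 miRNAs in steps on a log axis, with filled circles for the EPO-MV array and open squares for the MSC-MV array, 1 array each and no error bars. Dotted lines mark the floor of 1 step, 30 steps and 60 steps; only miR-122-3p, miR-194-5p and miR-203-3p lie beyond 60 steps on both arrays.

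MiRNAs known from other cell types were read on the same arrays. Since probes differ in brightness, these levels are given as readings and do not check the labelled source. The 20 entries of a list called stromal here include miR-21a, miR-22 and miR-29a beside miR-143 and miR-199a. How far these miRNAs are particular to stroma was not tested. They had medians of 3104.5 steps with EPO and 3280 without it, and reached down to 13 and 19 steps. The brightest of them, miR-21a-5p, had 37150 and 40369 steps. The 8 entries of blood cell miRNAs had medians of 1139 and 1117.5 steps, summed levels of 31953 and 35872 steps and none of them at 1 step. Their brightest entry was miR-142-3p, a miRNA of haematopoietic cells, with 20714 and 21839 steps, and miR-223-3p of myeloid cells, a choice made once its value was known, read 6415 and 9245 steps. Their values reached down to 34 and 24 steps, for the entry that miR-3107-5p shares with the erythroid miR-486-5p, also named once its value was known. The 15 other epithelial entries, which include the miR-200 family, had medians of 68 and 43 steps and reached down to 2 steps on each array. Their brightest entry was miR-183-5p, a miRNA of sensory epithelia, with 3086 and 2831 steps. The part of blood cells in the values of the 16 members was not tested.

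**Figure D2:**
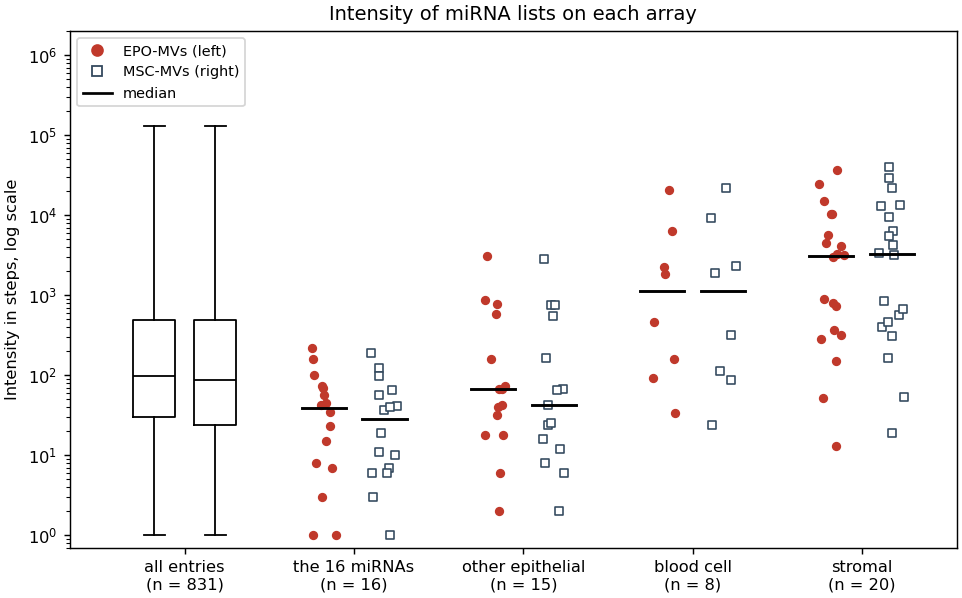
Intensity in steps on a log axis for all 831 entries (boxes with quartiles and whiskers to the lowest and highest value) and for each entry of 4 lists, EPO-MVs on the left and MSC-MVs on the right of each pair, with black bars at the medians. The 16 miRNAs, with medians of 39 and 28 steps, are plotted beside the stromal list, with medians of 3104.5 and 3280 steps.

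Whether EPO in the culture went with another miRNA content of the MVs was asked through the EPO-MV intensity of a miRNA divided by its MSC-MV intensity, and a miRNA was called changed where this ratio reached 1.5 or fell to 0.667 or lower. Of the 16 members 8 (50.0%) were called changed, beside 25.4% of all entries. Of these, 5 were higher in EPO-MVs (miR-122-3p, miR-192-5p, miR-203-5p, miR-215-3p and miR-375-3p), beside 17.8% of all entries, and 3 were lower (miR-205-3p, miR-216a-5p and miR-375-5p), beside 7.58%. The median log2 ratio of the members was 0.13 and that of all entries 0.05. The share differed with intensity. Among the 8 members below 30 steps on at least 1 array, 6 were called, where 57.8% of all such entries were. Among the 8 members with at least 30 steps on both arrays 2 were called (10.8% of all such entries), and among the 3 with at least 60 steps 1 was called (8.64% of all such entries). In the comparison lists, 5 of 15 other epithelial entries were called, all higher in EPO-MVs, with a median log2 ratio of 0.05. Of the 20 stromal entries 3 were called, all lower, with a median log2 ratio of -0.34, and of the 8 blood cell entries 1 was called higher and 1 lower, with a median of -0.13. These counts are a description of few entries, and nothing particular to these miRNAs is read from them.

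**Figure D3:**
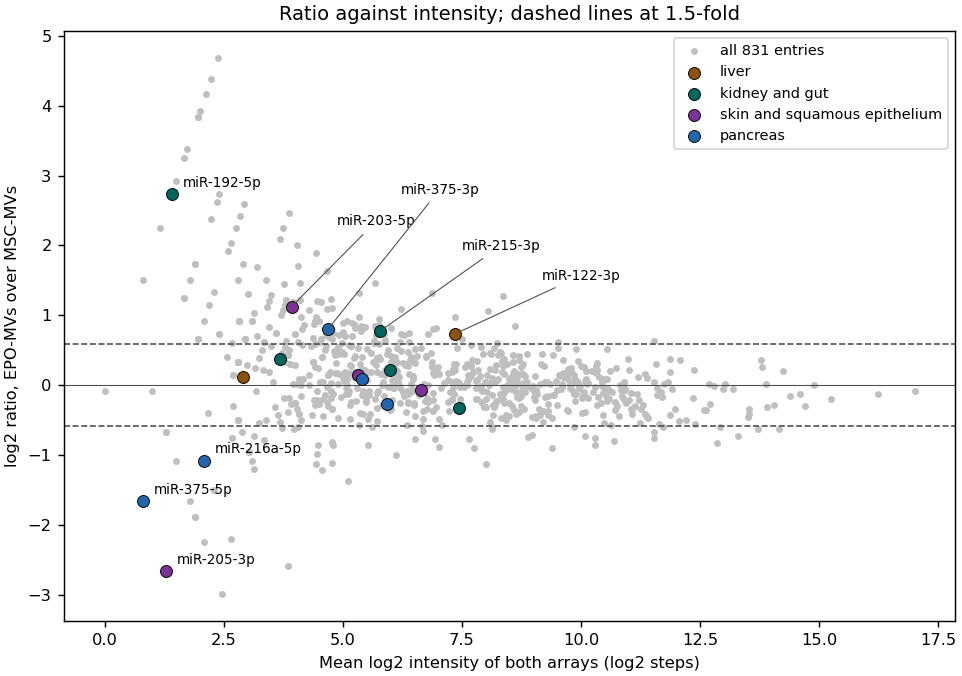
The log2 ratio of EPO-MVs to MSC-MVs against the mean log2 intensity in steps, for all 831 entries in grey and the 16 miRNAs in colour by organ, with dashed lines at 1.5-fold. The 8 members beyond the dashed lines are labelled, and the widest ratios, of miR-192-5p (log2 ratio 2.73) and miR-205-3p (-2.66), lie at the dim end of the intensity axis.

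For the liver miRNA miR-122 the 3p arm was called and the 5p arm was not. The entry miR-122-5p, the strand that acts in hepatocytes, read 8 steps with EPO and 7 without it, a ratio of 1.08, and 5.66% and 8.30% of all entries were dimmer. The entry of the other strand, miR-122-3p, read 218 steps with EPO and 124 without it. This ratio of 1.67 (log2 ratio 0.74) was the one call of the set that was made above 60 steps on both arrays. Its EPO-MV value would have to be 23 steps lower to fall within 1.5-fold.

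Among the kidney and gut miRNAs, miR-192-5p read 7 steps with EPO and 1 without it. Its ratio of 6.64 (log2 ratio 2.73) was the highest of the 16 with the deposited values. It came from a difference of 6 steps against the lowest reading of the MSC-MV array, so that its size rests on the floor. With the pseudocount described below miR-192-5p had a ratio of 1.21 and was no longer called. Its seed partner miR-215-5p read 70 steps with EPO and 57 without it, a ratio of 1.17 that was not called. The other strand of the same hairpin, miR-215-3p, had 74 and 41 steps and a ratio of 1.71 (log2 ratio 0.78), which was 1.44, and no longer called, with the pseudocount described below.

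The cluster partner of both, miR-194, was not called on either arm. The entry miR-194-5p, which has the adhesion molecule N-cadherin among its known targets, read 159 steps with EPO and 189 without it, a ratio of 0.798. The entry miR-194-1-3p, which belongs to the copy next to Mir215, had 15 and 11 steps, a ratio of 1.29. Of the 5 kidney and gut entries 2 were called, both higher in EPO-MVs (beside 17.8% of all entries), 1 of them miR-192-5p at the floor. A ratio above 1 was read in 4 of the 5, as in 466 of all 831 entries, and in 3 of the 5 under quantile normalization and lowess, where miR-194-1-3p had ratios of 0.926 and 0.953.

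Among the skin and squamous epithelium miRNAs, the main strands were nearly level between the arrays. The entry miR-203-3p read 100 steps with EPO and 99 without it, a ratio of 0.959, and miR-205-5p had 43 and 37 steps, a ratio of 1.10. Both calls fell on the partner strands, in opposite directions. The entry miR-203-5p read 23 steps with EPO and 10 without it, a ratio of 2.18 (log2 ratio 1.13) that was 1.33, and no longer called, with the pseudocount. The entry miR-205-3p had 1 step with EPO, the floor of that array, and 6 without it, and the size of its ratio, 0.158 (log2 ratio -2.66), rests on the floor.

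In the pancreas group no entry had 60 steps on both arrays. For the acinar miRNA miR-216a, the entry miR-216a-5p read 3 steps with EPO and 6 without it, a ratio of 0.475 (log2 ratio -1.08) that 2 more steps in EPO-MVs would bring within 1.5-fold. The entry miR-216a-3p had 57 and 65 steps, a ratio of 0.832, and miR-217-3p of the same cluster had 45 and 40 steps, a ratio of 1.07. This was the 1 entry of miR-217, and its 5p strand was not read. For the islet miRNA miR-375, the arms were called in opposite directions with the deposited values. The active strand miR-375-3p read 35 steps with EPO and 19 without it, a ratio of 1.75 (log2 ratio 0.81). This call was lost under quantile normalization and lowess, both at a ratio of 1.43, and with the pseudocount, at 1.32. The entry miR-375-5p had 1 and 3 steps, a ratio of 0.316 (log2 ratio -1.66) that also rests on the floor and on 2 steps.

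The arms were then set against each other within hairpins, each arm by its own ratio. Among the 6 member hairpins with both a 5p and a 3p entry of the same name, 5 were called on 1 arm, 1 (miR-375) on both arms in opposite directions, and no hairpin was without a call. The rule of the same name leaves out the hairpin of Mir194-1, whose arms miR-194-5p and miR-194-1-3p were both within 1.5-fold, and the 3p call of miR-375 was lost under the scalings named above. Among all such hairpins of the array 35% were called on 1 arm, 2.69% on both in opposite directions, 5.83% on both in the same direction and 56.5% on neither. Of the 7 called arms 5 were below 30 steps on at least 1 array. Under the 4 other scalings 0 of the 6 member hairpins were without a call, beside 55.6% to 63.2% of all such hairpins. With the pseudocount 5 of the 6 had no call (87.9% of all such hairpins). When arms had to reach 30 steps on both arrays 4 of the 6 had none (85.7%). The counts thus depended on how dim arms were treated, and nothing particular to these hairpins is read from them.

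**Figure D4:**
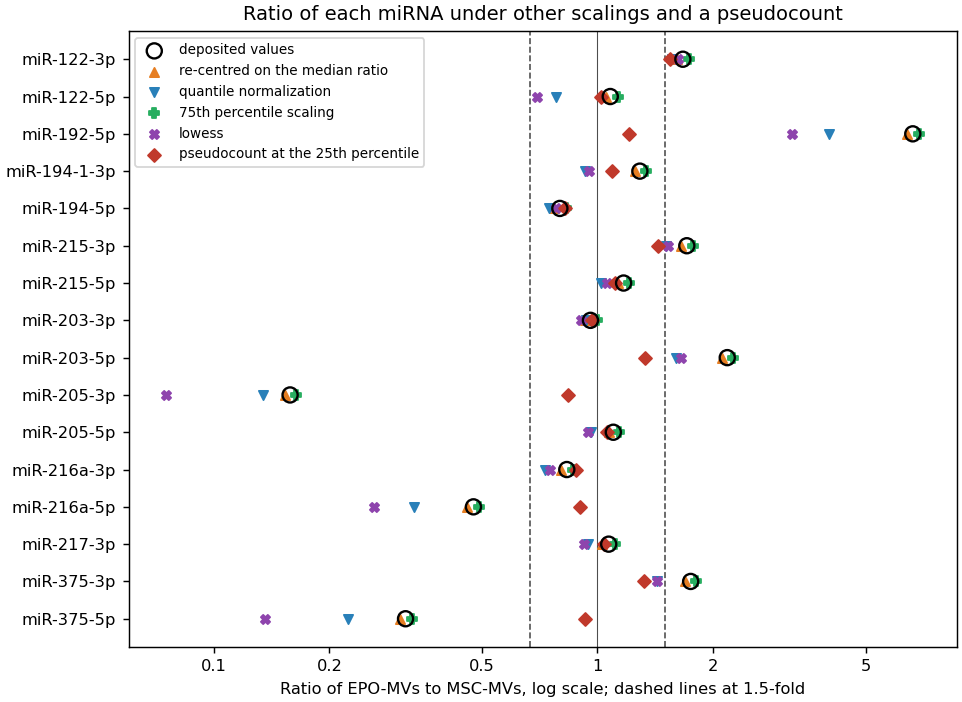
Ratio of EPO-MVs to MSC-MVs for each of the 16 miRNAs on a log axis, with open circles for the deposited values and symbols for 4 other scalings and a pseudocount; dashed lines mark 1.5-fold. The ratios of miR-122-3p stay together beyond 1.5-fold, while those of dim entries such as miR-192-5p reach 1.21 with the pseudocount.

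The calls depended on how dim entries were treated. Leaving out the entries at 1 step on either array, an alternative added once the values were known, kept 5 of the 8 calls, and a minimum of 30 steps on both arrays kept 2, miR-122-3p and miR-215-3p. Adding a pseudocount of 0.0573, at the 25th percentile of the values, left miR-122-3p alone, at a ratio of 1.55. The ratio of miR-192-5p was then 1.21 and that of miR-205-3p 0.840. Quantile normalization and lowess also moved the ratios of dim entries, that of miR-192-5p to 4.02 and 3.22, and lowess moved those of miR-205-3p, miR-216a-5p and miR-375-5p away from 1, to 0.0751, 0.262 and 0.136. The pseudocount exceeds the values of 5 of the 8 called members on both arrays and shrinks their ratios by construction.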

How the data were processed

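RNA of EPO-MVs and of MSC-MVs was hybridized to the miRCURY LNA Array, 1 array each. Per the labels and the methods, the authors labelled the RNA with a fluorescent dye, read the spots with GenePix Pro, averaged replicate spots and applied median normalization with a factor taken from miRNAs of intensity 30 or more in all samples. The deposited values are these normalized intensities on a linear scale for 831 miRNAs. The channel read, background correction and choice of the 831 miRNAs are not given in the sources used here.

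Ratios, calls at 1.5-fold and steps (whole within 0.0001 of a step) were computed from the deposited values, with no filter and no pseudocount, and the number of arrays limits the precision. All 16 members were named, with the brightest entry of each comparison list; the members, lists and rules were chosen with earlier results of these data known. Another 9 settings were tried, thresholds of 2 and 1.2, at least 30 or 60 steps on both arrays, re-centring on the median ratio, quantile normalization, scaling to the 75th percentile, lowess (span 0.4, 3 iterations) and the pseudocount, and 2 filters were added after the values were seen. Python 3.11.15, pandas 2.3.3, numpy 2.4.6, statsmodels 0.14.6 and matplotlib 3.10.9 were used.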

Additional observations from a re-analysis of the deposited data

How the results depend on the processing

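The number of members called, 8 with the deposited values, was 5 at a threshold of 2 (10.6% of all entries), 11 at 1.2 (55.4%), 2 with at least 30 steps on both arrays (10.8%), 1 with at least 60 (8.64%) and 1 with the pseudocount (6.50%). With the filters added after the values were seen it was 5 without entries at 1 step (24.0%) and 3 with at least 30 steps on either array (16.2%). The number called higher in EPO-MVs, 5 with the deposited values, was 2 at a threshold of 2 (8.06% of all entries), 2 and 1 with at least 30 and 60 steps on both arrays (5.93% and 3.24%), 1 with the pseudocount (3.49%) and 3 with at least 30 steps on either array (10.6%). The filters leave out dim members and the pseudocount shrinks dim ratios by construction. Under quantile normalization and lowess, which made 95 higher and 95 lower and 92 higher and 96 lower calls among all entries in place of 148 and 63, 7 of the 8 members kept their call (22.9% and 22.6% of all entries called), and miR-375-3p had a ratio of 1.43 under both. All 8 kept it with re-centring (24.7% of all entries called) and with scaling to the 75th percentile (25.9%), which moved the median log2 ratio of all entries from 0.05 to 0.00 and 0.10. The filters leave a ratio as it was. The 5 settings that recompute it gave 80 ratios of the 16 members. Of these, 71 stayed on their side of 1.5-fold, 9 lost the call and 0 of the called ones changed direction. The 71 include all ratios of the 8 uncalled members, so the losses fell on the 8 called ones alone. A pseudocount cannot move a ratio across 1, and re-centring and 75th percentile scaling multiply all ratios by a common factor near 1. Under these settings the absence of a change of direction was largely fixed in advance. Uncalled ratios of 4 members (miR-122-5p, miR-194-1-3p, miR-205-5p and miR-217-3p) passed from above 1 to below it under quantile normalization and lowess. Low signal over the floor limits all members but miR-122-3p, miR-194-5p and miR-203-3p. No paired analysis was possible because each group had 1 array.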
